A study of Mus musculus with 23 samples.

Results

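The IL-1 family genes Il1a, Il1b, Il1rn, Il18, Il33, Il1r1, Il1r2, Il1rap and Il18bp were followed across the 6 groups of a study on the protein kinases MK2 and MK3 in macrophages. The members were chosen by name, with earlier results of these data known, as the array probes whose accession maps to one of these genes. All 9 genes were found, with 10 probes, among 26014 genes measured on the arrays. RNA of bone marrow-derived macrophages (BMDM), cells grown from the femoral marrow of male C57BL/6 mice (by the methods, knockouts on a C57BL/6J background) with the growth factor M-CSF, was hybridized to 23 one-colour Agilent arrays, 1 array per sample. The wild-type (wt) mice were 12 to 13 weeks old, the mice without MK2 (MK2-/-) 10 to 13 weeks and the mice without both kinases (MK2/3-/-) 11 to 14 weeks. BMDM of each genotype were kept for 120 min in medium or in medium with 100 ng/ml lipopolysaccharide (LPS), the ligand of TLR4 in the outer wall of Gram-negative bacteria. Each group held 4 arrays, except for MK2-/- BMDM in medium with 3. The kinases are deleted in all cells of these mice, no strain lacking MK3 alone was part of the samples used here, and the wt animals are described as littermates of the knockouts.

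IL-1α, IL-1β, IL-18 and IL-33 are secreted or released ligands that act through receptor pairs and the adaptor MyD88, and they drive fever, leukocyte recruitment and lymphocyte responses. IL-1β and IL-18 are made as precursors that caspase-1 cleaves inside inflammasomes, whereas IL-1α and IL-33 are active when cells are damaged. The pathway is held in check by IL-1Ra (gene Il1rn), which blocks the IL-1 receptor, by IL-1R2, a decoy without a signalling domain, and by the IL-18 binding protein. Macrophages stimulated through TLR4 are a classical source of IL-1. MK2 and MK3 are kinases downstream of p38 that act on the stability and translation of cytokine mRNAs.

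The sequences upstream of Il1a, Il1b and Il33 are shown because, of the 4 ligand genes, these had the widest span between medium and LPS. Each line gives the 250 bases before an annotated RefSeq transcription start in the assembly GRCm38.p6, on the strand of the gene, in lower case with exact matches to TATAAA (the TATA box), TGANTCA (an AP-1 motif) or TTGCNNAA (a C/EBP motif) in capitals. Il1a lies at chr2:129309973-129310222 on the minus strand and Il1b at chr2:129371140-129371389 on the minus strand. Il33 has 2 annotated starts on the plus strand, with windows at chr19:29924863-29925112 and chr19:29945540-29945789.
Il1a: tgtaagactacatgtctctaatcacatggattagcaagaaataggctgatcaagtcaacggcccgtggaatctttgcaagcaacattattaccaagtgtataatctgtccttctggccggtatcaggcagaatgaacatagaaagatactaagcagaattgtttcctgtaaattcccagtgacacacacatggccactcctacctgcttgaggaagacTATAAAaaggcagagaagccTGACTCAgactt
Il1b: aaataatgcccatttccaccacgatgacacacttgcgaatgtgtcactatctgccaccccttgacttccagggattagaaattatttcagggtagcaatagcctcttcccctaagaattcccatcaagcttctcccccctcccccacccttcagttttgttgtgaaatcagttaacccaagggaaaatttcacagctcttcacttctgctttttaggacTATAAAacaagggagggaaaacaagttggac
Il33 start 1: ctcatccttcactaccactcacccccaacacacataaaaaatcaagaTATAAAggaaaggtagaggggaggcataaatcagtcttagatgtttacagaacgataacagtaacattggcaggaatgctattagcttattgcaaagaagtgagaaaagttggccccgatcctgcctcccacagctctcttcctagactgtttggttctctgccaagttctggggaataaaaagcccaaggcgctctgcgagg
Il33 start 2: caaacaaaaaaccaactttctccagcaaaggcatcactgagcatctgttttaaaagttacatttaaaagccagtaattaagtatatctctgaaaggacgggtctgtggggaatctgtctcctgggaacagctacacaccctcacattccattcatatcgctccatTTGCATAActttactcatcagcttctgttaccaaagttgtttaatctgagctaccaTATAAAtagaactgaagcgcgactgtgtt

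In these windows TATAAA began 32 bases before the start of Il1a, 31 bases before that of Il1b and 29 bases before the second start of Il33. It was also found 203 bases before the first start of Il33 and, on the opposite strand, 175 bases before the start of Il18. Of 32851 promoters of this length, 12.4% held TATAAA on either strand and 1.99% held it on the strand of the gene beginning between 20 and 40 bases before the start. TGANTCA stood 12 bases before the start of Il1a, and apart from Il1a it was found in a window of Il1rn only, while 6.75% of all promoters held it. TTGCNNAA was found 85 bases before the second start of Il33 and in windows of Il1r1 and Il18bp, against 9.56% of all promoters. A loose NF-κB motif, GGG followed by any 5 bases and CC, was in 4 of the 13 windows of the 9 members, at Il1r1, Il1rap and Il1rn, against 45.8% of all promoters. All motifs were searched on both strands, and TGANTCA and the NF-κB motif can match both at once, which was counted as 1 promoter.

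The arrays were checked against their labels. Mapkapk2, the gene of MK2, was 9.90-fold lower in MK2-/- than in wt BMDM in medium and 7.02-fold lower after LPS, and in MK2/3-/- BMDM it was 11.3-fold and 8.04-fold lower. Mapkapk3, the gene of MK3, was 3.08-fold lower in MK2/3-/- BMDM in medium and 9.88-fold lower after LPS. In MK2-/- BMDM Mapkapk3 differed from wt by 0.24 in medium and -0.03 after LPS on the log2 scale, neither called. Mapkapk2 was still well above background on every knockout array. It rose after LPS 8.26-fold in MK2-/- and 8.22-fold in MK2/3-/- BMDM. Between 47.5% and 69.1% of the probes of an array were well above background by the mark of the scanner software, and both extremes were MK2/3-/- samples in medium, replicate 1 with the lowest and replicate 2 with the highest share. All 7 measured macrophage markers, Adgre1, Csf1r and Itgam among them, were well above background on every array, with a summed log2 level of 18.7 to 19.4. Of 6 fibroblast and stromal markers 2 to 5 were well above background, and their summed level ranged from 11.9 to 16.7 in wt, from 10.3 to 15.1 in MK2-/- and from 9.09 to 15.8 in MK2/3-/- samples. The 7 measured neutrophil markers summed to 11.6 to 14.2. No gene of these 3 lists was called between genotypes, although the stromal markers had a median difference after LPS of -1.42 in MK2-/- and -1.04 in MK2/3-/- against wt BMDM. The 5 dendritic cell markers summed to 10.8 to 13.9. Of the 5 mast cell and basophil markers Kit and Mcpt8 were well above background on 9 of 23 arrays each, Cpa3 on 1 and Fcer1a and Ms4a2 on none, and Kit rose after LPS in each genotype. Medium and LPS arrays that share a genotype and a letter in the authors' sample names were taken as 1 culture, 11 cultures in all with both. This was inferred from the letters, the matching ages of the mice and the shared deviations of the arrays. The p-values measure the spread between these arrays. The arrays of each genotype lay on a slide of their own, so slide and genotype cannot be told apart, and medium and LPS samples lay in different rows of the slides, so that array row and treatment cannot be told apart either.

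All levels below are log2 signals of a probe after quantile normalization of the 23 arrays, differences are differences of such levels, and a gene was called where the adjusted p of limma over all 26014 genes was under 0.05. A level can be compared between samples but not between genes. In RNA of whole cultures, fewer cells that express a gene and less RNA per cell cannot be told apart. In all 3 genotypes most members were higher after LPS. Members and gene lists were chosen with earlier results known, so the shares of all genes beside their counts are a reference and not a test. In wt BMDM 6 of the 9 members rose, compared with 8.26% of all genes, and none fell (8.89%). In MK2-/- BMDM 6 rose against 8.48% of all genes and none fell (10.1%), and in MK2/3-/- BMDM 7 rose against 11.9% and none fell (12.9%). Il1a, Il1b, Il1rn, Il18, Il33 and Il1r1 were the genes that rose in every genotype, and Il1rap rose in MK2/3-/- BMDM. Over the members the median difference was 2.73, 1.46 and 2.50 in the order wt, MK2-/-, MK2/3-/-, while that of all genes was 0.0051, -0.011 and -0.024. The LPS and medium groups did not overlap for 7 members in wt (11.4% of all genes in that direction), 6 in MK2-/- (16.1%) and 7 in MK2/3-/- cells (11.9%).

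**Figure D1:**
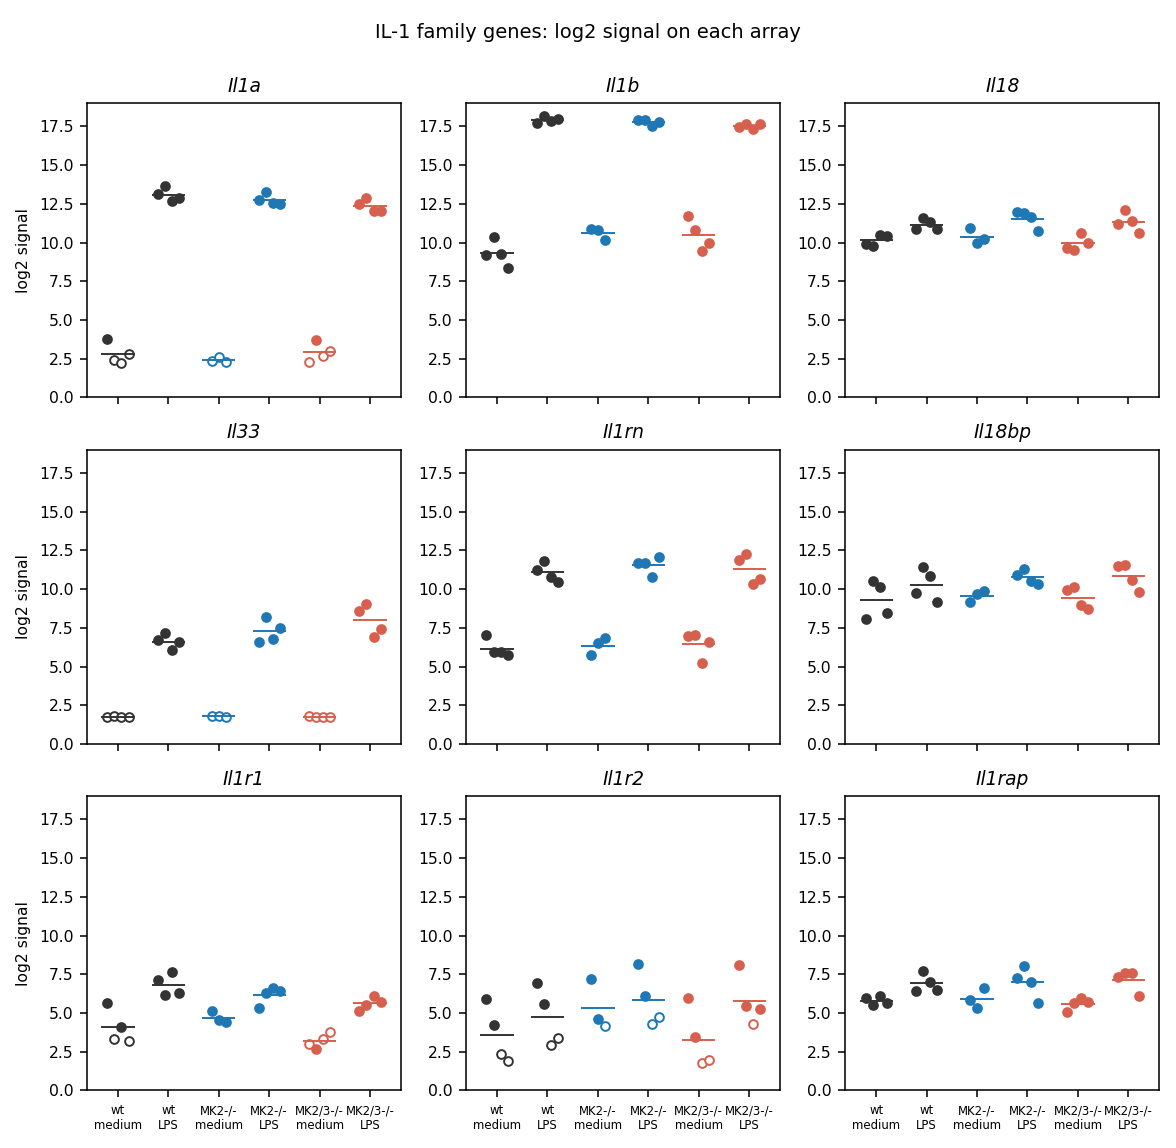
Log2 signal (y axis) of the 9 IL-1 family genes on each of the 23 arrays, by genotype and treatment (x axis). Filled points were well above background, open points were not, and bars are group means. Il1a and Il33 pass from mostly open points in medium to filled points after LPS in all genotypes, while Il1r2 spreads over several log2 units within each group.

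Il1a, which codes for IL-1α, was at the edge of detection in medium. Its level in wt BMDM in medium was 3.75, 2.40, 2.22 and 2.80, of which only the first was well above background, and after LPS it was 13.12, 13.68, 12.71 and 12.90. In MK2-/- BMDM it was 2.35, 2.61 and 2.28 in medium, on no array above background, and 12.76, 13.29, 12.57 and 12.47 after LPS. In MK2/3-/- BMDM it was 2.30, 3.72, 2.70 and 3.00 in medium, with the second alone above background, and 12.48, 12.88, 12.03 and 12.04 after LPS. Every LPS array lay far above every medium array, and wt replicate 2, MK2-/- replicate 2 and MK2/3-/- replicate 2 were the highest of their groups. Il1a rose by 10.31 ± 0.33 (SE) in wt (limma, adjusted p = 7.99e-14) and by 9.43 ± 0.33 in MK2/3-/- BMDM (adjusted p = 1.98e-13). In MK2-/- BMDM the rise was at least 595-fold when medium signals were raised to the lowest signal well above background on their array (adjusted p = 5.26e-13 for the measured difference of 10.36). With normexp background correction the rise was 6.67, 6.49 and 6.05, since this correction lifts signals near background, and it was still called.

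Il1b, which codes for IL-1β, was well above background on all arrays, with 10 spots per array whose log2 signals had an SD of 0.03 to 0.15 on an array. In medium its level was 9.21, 10.37, 9.24 and 8.36 in wt, 10.85, 10.82 and 10.15 in MK2-/- and 11.74, 10.81, 9.48 and 9.94 in MK2/3-/- cells. The medium groups overlapped, with wt replicate 4 as the lowest array and MK2/3-/- replicate 1 as the highest. After LPS it was 17.71, 18.14, 17.85 and 18.00 in wt, 17.94, 17.94, 17.55 and 17.81 in MK2-/- and 17.48, 17.63, 17.32 and 17.69 in MK2/3-/- cells. These 12 LPS arrays spanned less than 1 log2 unit, and MK2/3-/- arrays were all below the wt arrays. Il1b rose 396-fold in wt (8.63 ± 0.39, adjusted p = 7.54e-12), 147-fold in MK2-/- (7.20 ± 0.42, adjusted p = 4.26e-10) and 131-fold in MK2/3-/- cells (7.04 ± 0.39, adjusted p = 1.38e-10).

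Il18, which codes for the IFN-γ-inducing cytokine IL-18, was already expressed in medium, at 9.93, 9.77, 10.46 and 10.41 in wt, 10.93, 9.95 and 10.25 in MK2-/- and 9.65, 9.53, 10.61 and 9.99 in MK2/3-/- cells. After LPS its level was 10.86, 11.60, 11.33 and 10.88 in wt, 11.95, 11.89, 11.63 and 10.75 in MK2-/- and 11.21, 12.10, 11.38 and 10.62 in MK2/3-/- cells. The treatments did not overlap in wt and MK2/3-/- BMDM, and in MK2-/- BMDM LPS replicate 4 lay below medium replicate 1. Il18 rose 2.03-fold in wt (adjusted p = 0.0393), 2.26-fold in MK2-/- (adjusted p = 0.0259) and 2.60-fold in MK2/3-/- cells (adjusted p = 0.00396). It was higher after LPS in 11 of 11 cultures. The call in wt was lost without LPS replicate 2 or 3 or medium replicate 1, 2 or 4 (adjusted p = 0.0502 to 0.128), and that in MK2-/- BMDM without LPS replicate 1, 2 or 3 or medium replicate 2 or 3 (adjusted p = 0.0518 to 0.133). With only the compared groups in the fit the MK2-/- call was lost as well (adjusted p = 0.0837). With the methods' t-test none of the 3 calls remained (adjusted p = 0.0525, 0.133 and 0.0614).

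Il33, which codes for the alarmin IL-33, was not well above background on any of the 11 medium arrays. After LPS it was well above background on all 12 arrays, at 6.69, 7.16, 6.04 and 6.55 in wt, 6.60, 8.17, 6.80 and 7.50 in MK2-/- and 8.59, 9.06, 6.94 and 7.45 in MK2/3-/- cells. MK2/3-/- replicates 1 and 2 were higher than all other arrays, while replicate 3 was below wt replicate 2. Against the lowest signal well above background in medium, Il33 rose at least 8.90-fold in wt (adjusted p = 1.33e-08), at least 13.1-fold in MK2-/- (adjusted p = 8.51e-09) and at least 22.5-fold in MK2/3-/- cells (adjusted p = 3.38e-10). With normexp background correction the rises were smaller than these bounds, at 1.50, 1.90 and 2.56 on the log2 scale, and they were still called. IL-33 is known as a product of stromal and epithelial cells. The summed stromal marker level after LPS was 16.4, 11.9, 14.2 and 15.1 in wt, 11.3, 10.5, 12.9 and 15.0 in MK2-/- and 9.80, 10.9, 13.6 and 15.6 in MK2/3-/- replicates 1 to 4. For the endothelial markers Pecam1, Cdh5 and Kdr it was 7.83, 9.56, 7.80 and 7.53 in wt and 9.31, 10.2, 8.43 and 7.72 in MK2-/-. In MK2/3-/- replicates it was 9.72, 9.84, 8.24 and 7.74. The dendritic cell level was 12.4, 13.3, 12.0 and 11.8 in wt and 12.7, 13.4, 12.6 and 12.9 in MK2-/-. In MK2/3-/- replicates it was 13.7, 13.9, 12.8 and 12.7. The part of these cell types in the Il33 level was not tested.

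Il1rn, which codes for the receptor antagonist, was well above background throughout. In medium its level was 7.05, 5.92, 5.92 and 5.73 in wt, 5.71, 6.51 and 6.82 in MK2-/- and 6.96, 7.02, 5.25 and 6.60 in MK2/3-/- cells. After LPS it was 11.26, 11.83, 10.80 and 10.46 in wt, 11.67, 11.72, 10.77 and 12.09 in MK2-/- and 11.90, 12.28, 10.31 and 10.64 in MK2/3-/- cells. The treatments did not overlap in any genotype, and the genotypes overlapped under both treatments. Il1rn rose 30.5-fold in wt (adjusted p = 3.56e-07), 37.1-fold in MK2-/- (adjusted p = 4.60e-07) and 28.3-fold in MK2/3-/- cells (adjusted p = 3.04e-07).

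Il18bp, which codes for the soluble inhibitor of IL-18, had levels of 8.09, 10.55, 10.15 and 8.43 in wt, 9.15, 9.65 and 9.85 in MK2-/- and 9.93, 10.16, 8.96 and 8.72 in MK2/3-/- cells in medium. After LPS it had 9.73, 11.42, 10.83 and 9.13 in wt, 10.92, 11.27, 10.50 and 10.34 in MK2-/- and 11.50, 11.57, 10.62 and 9.79 in MK2/3-/- cells. The groups overlapped in wt and MK2/3-/- BMDM, where cultures differed by over 1 log2 unit, and not in MK2-/- BMDM. The differences were 0.98 (95% interval -0.22 to 2.17, adjusted p = 0.307), 1.21 (-0.08 to 2.50, adjusted p = 0.208) and 1.43 (0.23 to 2.62, adjusted p = 0.0783), none of them called. Medium and LPS samples of a genotype were paired into cultures by letter, and within these cultures Il18bp was higher after LPS in 11 of 11, by 0.50 to 1.78. With the culture as a random block the difference in MK2/3-/- BMDM was called (adjusted p = 0.0227, where 30.9% of all genes were called), and it was also called without LPS replicate 4 (adjusted p = 0.0315).

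Il1r1, which codes for the signalling receptor of IL-1, had levels of 5.67, 3.35, 4.07 and 3.22 in wt, 5.12, 4.58 and 4.41 in MK2-/- and 3.00, 2.65, 3.34 and 3.75 in MK2/3-/- cells in medium. Of these arrays 2 of 4 in wt, all 3 in MK2-/- and 1 of 4 in MK2/3-/- cells were well above background. After LPS it had 7.10, 6.18, 7.65 and 6.27 in wt, 5.32, 6.32, 6.64 and 6.39 in MK2-/- and 5.13, 5.54, 6.12 and 5.68 in MK2/3-/- cells. The treatments did not overlap in any genotype, the medium arrays of MK2-/- lay above all those of MK2/3-/- BMDM, and the LPS arrays of MK2/3-/- lay below all those of wt BMDM. Il1r1 rose 6.61-fold in wt (2.73 ± 0.46, adjusted p = 0.000228), 2.76-fold in MK2-/- (1.46 ± 0.49, adjusted p = 0.0452) and 5.41-fold in MK2/3-/- cells (2.43 ± 0.46, adjusted p = 0.000468). The rise in MK2-/- BMDM was the call lost most often, in 12 of the 23 fits that left out 1 array (adjusted p = 0.0514 to 0.145), those without wt LPS replicate 1, wt medium 3, MK2-/- LPS 2, 3 and 4, MK2-/- medium 1, 2 and 3, MK2/3-/- LPS 2 and 4 and MK2/3-/- medium 1 and 3, and it was lost with normexp background correction, where the rises shrank to 1.04, 0.53 and 0.62. Il1r1 is also expressed by stromal cells. In medium the summed stromal level was 16.7, 12.1, 14.3 and 15.1 in wt and 11.2, 10.3 and 15.1 in MK2-/- cells. In MK2/3-/- cells it was 9.09, 10.9, 13.3 and 15.8, and its part in the Il1r1 level was not tested.

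Il1rap, which codes for the accessory chain that pairs with the receptors of IL-1 and IL-33, was measured by 2 probes. The probe used, the one with the larger difference in wt BMDM, gave 5.96, 5.53, 6.08 and 5.62 in wt, 5.82, 5.35 and 6.61 in MK2-/- and 5.09, 5.66, 5.97 and 5.73 in MK2/3-/- cells in medium. After LPS it gave 6.44, 7.70, 6.98 and 6.52 in wt, 7.27, 8.01, 7.01 and 5.63 in MK2-/- and 7.30, 7.55, 7.59 and 6.10 in MK2/3-/- cells. MK2-/- LPS replicate 4 was the one LPS array within the range of its medium group, and wt and MK2/3-/- treatments did not overlap. Il1rap rose 2.88-fold in MK2/3-/- BMDM (1.52 ± 0.43, adjusted p = 0.0130), and the differences of 1.11 in wt (0.21 to 2.02, adjusted p = 0.0919) and 1.06 in MK2-/- BMDM (0.08 to 2.04, adjusted p = 0.137) were not called. Without MK2-/- LPS replicate 4 both were called (adjusted p = 0.0399 and 0.0150). The other probe had differences of 0.65, 0.62 and 1.40, the last of which was called over the 32885 probes (adjusted p = 0.0220).

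Il1r2, which codes for the decoy receptor, was well above background on 13 of 23 arrays and varied more between cultures than between groups. In medium its level was 5.89, 4.23, 2.35 and 1.89 in wt, 7.18, 4.62 and 4.17 in MK2-/- and 5.96, 3.44, 1.75 and 1.95 in MK2/3-/- cells. After LPS it was 6.95, 5.58, 2.92 and 3.41 in wt, 8.19, 6.09, 4.27 and 4.72 in MK2-/- and 8.10, 5.45, 4.31 and 5.23 in MK2/3-/- cells. Replicate 1 was the highest and replicate 2 the second highest array in each of the 6 groups, and all groups overlapped. The differences after LPS were 1.13 (-1.40 to 3.65, adjusted p = 0.644), 0.50 (-2.23 to 3.22, adjusted p = 0.881) and 2.50 (-0.03 to 5.02, adjusted p = 0.150), none of them called. Without medium replicate 1 the difference in MK2/3-/- BMDM was called (adjusted p = 0.0480). Within cultures Il1r2 was higher after LPS in 11 of 11, by 0.57 to 1.52 in wt, 0.55 to 1.48 in MK2-/- and 2.01 to 3.28 in MK2/3-/- cells.

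Replicates 1 and 2 in every group carry the letters a and b in the authors' sample names, and the labels do not say what a letter shared by genotypes stands for. With the culture as a fixed effect, chosen after seeing the data, the Il1r2 difference was called in wt (adjusted p = 0.00736), MK2-/- (1.01, adjusted p = 0.0240) and MK2/3-/- BMDM (adjusted p = 4.38e-05), and so were those of Il18bp (adjusted p = 0.0129, 0.00617 and 0.00110). By this fit 21.5%, 22.8% and 30.6% of all genes were called in the 3 genotypes. It did not call Il18 in wt and MK2-/- (adjusted p = 0.0624 and 0.0654), Il1r1 in MK2-/- (adjusted p = 0.0528) and Il1rap in MK2/3-/- cells (adjusted p = 0.0514). With the culture as a random block, which had been planned, Il1r2 was not called (adjusted p = 0.476, 0.756 and 0.0544). Neutrophils express Il1r2 strongly. The summed neutrophil level was 13.2 to 14.2 in the cultures with letter b, second highest for Il1r2. In those with letter a, highest for Il1r2, it was 12.1 to 12.6. With letter c it was 11.6 to 12.0 and with letter e 11.9 to 12.9, so letters a and e overlapped. The part of neutrophils in the Il1r2 level was not tested.

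**Figure D2:**
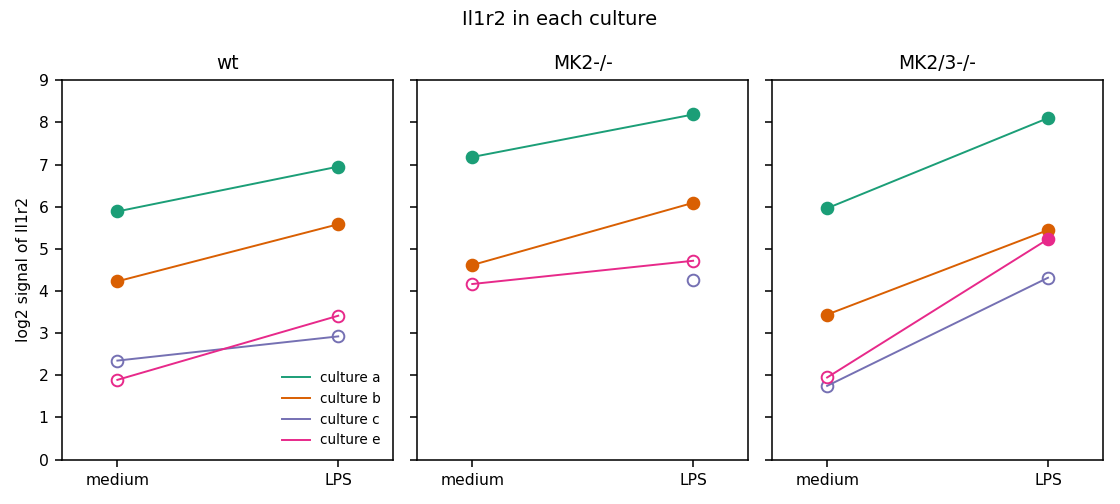
Log2 signal of Il1r2 (y axis) in medium and after LPS (x axis) in each culture, with 1 panel per genotype and lines joining samples of the same culture. Open points were not well above background. All 11 lines rise, culture a is highest in every panel, and culture c of MK2-/- BMDM has no medium array.

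**Figure D3:**
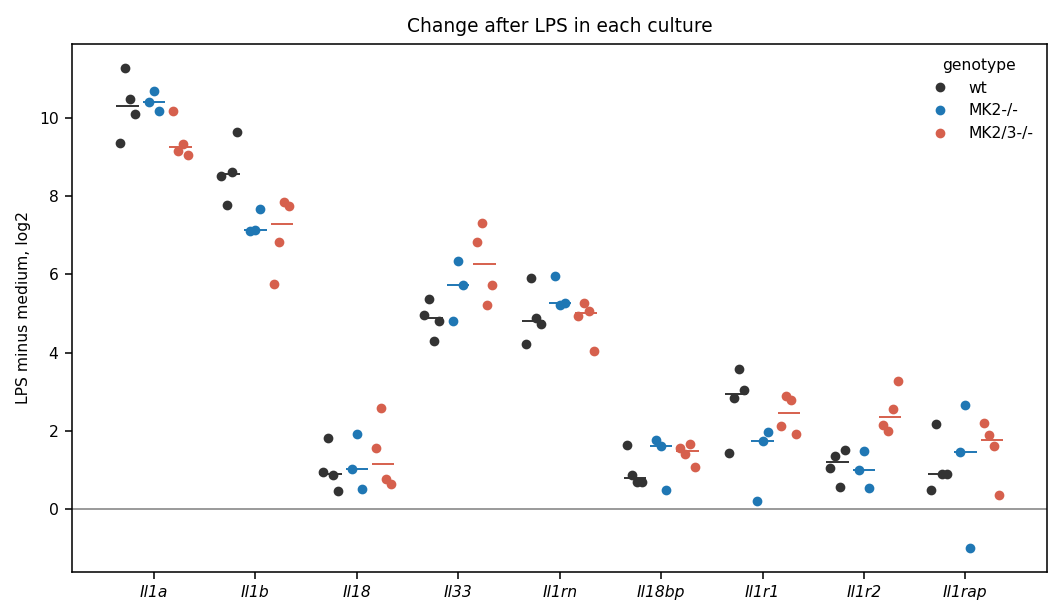
LPS minus medium on the log2 scale (y axis) for the 9 genes (x axis) in each of 11 cultures, with the median of a genotype as a bar. A single point lies below 0, Il1rap in an MK2-/- culture at -0.98, and the wt points of Il1b lie between 7.77 and 9.64.

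The study asked how the absence of MK2, or of MK2 and MK3, changes the response to LPS. After LPS no member was called between genotypes by limma. In MK2-/- against wt BMDM 0 of 9 members had an unadjusted p under 0.05, compared with 7.5% of all genes, and 0.0308% of all genes were called. In MK2/3-/- against wt BMDM 3 members had an unadjusted p under 0.05, compared with 13.6% of all genes, while 1.64% of all genes were called. In MK2/3-/- against MK2-/- BMDM no member had an unadjusted p under 0.05, compared with 7.91%, and 0.161% of all genes were called. With p-values adjusted here over all genes, the methods' t-test called no member in these comparisons either. The paper applied its t-test at p < 0.05, with no adjustment over genes described. The paper's rule also sets a minimum rise after LPS in wt BMDM. By this rule Il1a, Il1b, Il1r1 and Il33 are listed as LPS-responsive and dependent on MK2 or on both kinases at this time. It sorts Il1a and Il1r1 with genes lower without MK2 and Il1b with genes lower only without both kinases. Il33 is sorted with genes higher in the absence of MK2 or of both kinases. A difference that misses the threshold does not show that genotypes have the same level, and intervals are given with the differences.

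The 3 members with an unadjusted p under 0.05 between MK2/3-/- and wt BMDM after LPS were Il33, Il1r1 and Il1a. Il33 was 2.64-fold higher in MK2/3-/- BMDM (1.40, 95% interval 0.62 to 2.18, adjusted p = 0.0664), with 3 of 4 arrays above every wt array, and the exact permutation test gave p = 0.0571. It was called without wt LPS replicate 2 (adjusted p = 0.0488), MK2-/- LPS replicate 2 (0.0478) or MK2/3-/- LPS replicate 3 (0.0218) or 4 (0.0414), and when only probes well above background throughout a group were tested (0.0391). Il33 in MK2-/- BMDM lay between, 0.66 above wt (-0.12 to 1.44, adjusted p = 0.703). Il1r1 was 2.27-fold lower in MK2/3-/- than in wt BMDM (-1.18, -2.14 to -0.22, adjusted p = 0.243), and Il1a was 1.67-fold lower (-0.74, -1.44 to -0.05, adjusted p = 0.331). Il1b was 1.32-fold lower (-0.40, -1.22 to 0.42, adjusted p = 0.732). Il1b and Il1r1 were the 2 members whose MK2/3-/- and wt LPS arrays did not overlap, against 2.89% of all genes in that direction, and the exact permutation test gave p = 0.0286 for either, the smallest that 4 against 4 arrays allow.

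For the other members the differences after LPS were smaller or less precise. Il1rn differed from wt by 0.47 (-0.53 to 1.48) in MK2-/- and by 0.19 (-0.81 to 1.20) in MK2/3-/- BMDM. Il1rap differed by 0.07 (-0.83 to 0.98) and 0.23 (-0.68 to 1.13). Il18 differed by 0.39 (-0.31 to 1.08) and 0.16 (-0.54 to 0.86), and Il18bp by 0.48 (-0.72 to 1.68) and 0.59 (-0.61 to 1.79). Il1r2, the least precise, was 2.14-fold higher in MK2-/- (log2 interval -1.43 to 3.62) and 2.08-fold higher in MK2/3-/- than in wt BMDM (-1.47 to 3.58). These intervals leave out the letters that arrays of different genotypes share. Compared letter by letter, Il1r2 after LPS was higher than in wt for 4 of 4 letters in MK2-/- and for 3 of 4 in MK2/3-/- BMDM. With the letter as a fixed block, chosen after seeing the data, the SE fell to 0.28 for both, with adjusted p = 0.171 for MK2-/- and a call for MK2/3-/- against wt BMDM (adjusted p = 0.0480, where 3.65% of all genes were called). By letter after LPS, Il33 in MK2/3-/- BMDM was above wt for 4 of 4, and Il1a, Il1b and Il1r1 for 0 of 4. The remaining members lay at 2 or 3 of 4. In MK2-/- BMDM Il1a was above wt for 0 of 4 letters, and the members other than Il1a and Il1r2 for 1 to 3 of 4. No such count was made over all genes. Between genotypes, arrays of the same letter and treatment deviated from their group means with a median correlation of 0.37, over 0.1 in 17 of 22 pairs, and arrays of different letters with one of -0.12. Over the members the median absolute difference was 0.47 for MK2-/- and 0.59 for MK2/3-/- against wt BMDM, and over all genes it was 0.22 and 0.26.

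**Figure D4:**
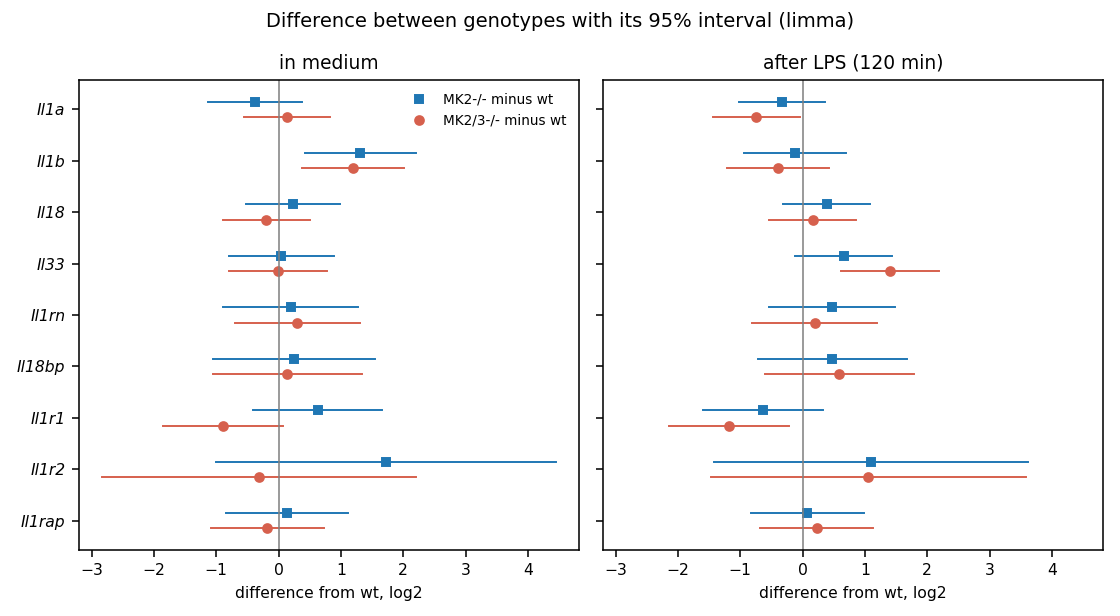
Difference of MK2-/- (squares) and MK2/3-/- BMDM (circles) from wt on the log2 scale (x axis) for the 9 genes (y axis), in medium and after LPS, with 95% intervals from limma. In medium Il1b lies above 0 for both genotypes, at 1.31 and 1.20, and after LPS Il33 in MK2/3-/- BMDM lies at 1.40. No difference was called after adjustment over all genes.

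In medium no member was called between genotypes either, by limma or by the methods' t-test with p-values adjusted over all genes. Of all genes, 0.00769% were called in MK2-/- against wt, 0.0769% in MK2/3-/- against wt and 0.0461% in MK2/3-/- against MK2-/- BMDM, and 1 member had an unadjusted p under 0.05 in each (3.42%, 4.63% and 3.57% of all genes). This member was Il1b for both knockouts against wt. Il1b was 2.48-fold higher in MK2-/- (1.31, 0.42 to 2.20, unadjusted p = 0.00608) and 2.29-fold higher in MK2/3-/- BMDM (1.20, 0.38 to 2.02, unadjusted p = 0.00660), with adjusted p of 1.00 and 0.794. The groups overlapped with wt replicate 2, and exact permutation tests gave p = 0.0857 and 0.143. By letter, Il1b in medium was above wt for 3 of 3 letters in MK2-/- and 4 of 4 in MK2/3-/- BMDM. In the same comparisons the 7 neutrophil markers had median differences of 0.78 and 0.72 and the 5 dendritic cell markers of 0.90 and 0.61. Those of the macrophage markers were 0.02 and -0.02 and those of the stromal markers -1.39 and -0.90. No gene of these lists was called, and the part of these cell types in the Il1b level was not tested. In MK2/3-/- against MK2-/- BMDM the member was Il1r1, which was 2.86-fold lower (-1.52, -2.55 to -0.48, adjusted p = 1.00) without overlap (2.89% of all genes in that direction), although 3 of the 4 MK2/3-/- arrays were not well above background.

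The size of the LPS response was compared between genotypes by an interaction term. No member was called, with 0.00384% of all genes called for MK2-/- against wt, 0.0115% for MK2/3-/- against wt and 0% for MK2/3-/- against MK2-/- BMDM. At an unadjusted p under 0.05 stood 1, 2 and 0 members (1.91%, 4.54% and 2.88% of all genes). The response of Il1b was smaller by 1.43 in MK2-/- (0.22 to 2.64 smaller, unadjusted p = 0.0233, adjusted p = 1.00) and by 1.59 in MK2/3-/- BMDM (0.43 to 2.76 smaller, unadjusted p = 0.00978, adjusted p = 0.807). Its group means after LPS were 17.93, 17.81 and 17.53, and those in medium 9.30, 10.61 and 10.49, in wt, MK2-/- and MK2/3-/- BMDM. The response of Il33 was 1.41 larger in MK2/3-/- than in wt BMDM (0.31 to 2.52, unadjusted p = 0.0150, adjusted p = 0.898), a value that rests on medium signals below background.

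The genes whose profile over the 23 arrays, after centring each gene, came closest to a member were found by the root mean square difference among 15694 genes well above background throughout a group. For Il1b they were Dusp2, a phosphatase of MAP kinases, at 0.47 and the cytokine gene Tnf at 0.47, against an SD of Il1b itself of 3.89. For Il1a, with an SD of 5.02, they were an unnamed GenBank transcript at 0.72 and the cytokine gene Il19 at 0.74. For Il1rn they were Gadd45b (0.54) and Traf1 (0.55), and for Il33 the adhesion molecule gene Icam1 (0.48) and Csrnp1 (0.51). Among members with smaller SD, Il18 came closest to C1ra (0.31) and Lrrk2 (0.31), Il18bp to Ms4a6c (0.40) and Itgal (0.42), Il1rap to Xkr8 (0.27) and Nudt9 (0.34), and Il1r1 to Txk (0.60) and Ebf4 (0.71). Il1r2 was above background throughout no group and was not compared.

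Of 12 further IL-1 family ligands and receptors 8 were measured, and Il36a, Il36b, Il36g and Il36rn were not matched to a probe. One of the 8 was called, Il1rl2, the IL-36 receptor gene, which was 1.23 higher after LPS in MK2-/- BMDM (adjusted p = 0.0172) and 1.74 lower in MK2/3-/- than in MK2-/- BMDM after LPS (adjusted p = 0.0324). Il1rl2 was not well above background on any array of the groups in these comparisons. Of the genes not called, Il1rl1 and Sigirr are described here, chosen after their values were seen. Il1rl1, the receptor of IL-33, was detected after LPS on every wt array and on 2 of 4 arrays of either knockout, at means of 7.27 ± 1.93, 4.76 ± 1.94 and 4.72 ± 2.80 (SD), and was not called. Its means in medium were 6.52, 4.09 and 4.15, detected on every wt array, on 1 MK2-/- array and on 2 MK2/3-/- arrays. Sigirr, an inhibitory member of the receptor family, was detected on all arrays at group means of 7.77 to 8.25 and was not called.

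Of 14 genes listed under processing and release of the ligands, 4 rose and 1 fell after LPS in wt BMDM. For MK2-/- BMDM these counts were 4 and 1, for MK2/3-/- BMDM 5 and 1, and the list medians were 0.39, 0.40 and 0.49. Of all genes 8.26%, 8.48% and 11.9% rose and 8.89%, 10.1% and 12.9% fell, with medians of 0.0051, -0.011 and -0.024. Nlrp3, the inflammasome sensor, rose by 4.45, 4.06 and 4.39 (adjusted p = 7.96e-11, 1.13e-09 and 1.03e-10). Casp4, the caspase that senses LPS in the cytosol and is named caspase-11 in mice, rose by 3.03, 2.80 and 3.16, and the pentraxin gene Ptx3 by 3.24, 5.23 and 3.40. Ptx3 codes for a secreted pentraxin and not for a processing or release factor, and it is part of the counts and medians of this list. The MK2-/- value of Ptx3 rests on medium signals that were not well above background. Aim2, a DNA sensor, rose in each genotype, by 1.57 in MK2/3-/- BMDM. Nlrp1b, another sensor, fell by 1.31 in wt and fell by 1.24 in MK2-/- BMDM. In MK2/3-/- BMDM Casp1, the protease of the inflammasome, rose and Pycard, the gene of its adaptor ASC, fell. None of the 14 was called between genotypes or in the interaction.

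Of 14 genes for signal transduction below the receptors, 10 rose and 1 fell in each genotype, with list medians of 1.08, 1.22 and 1.30, beside the same shares and medians of all genes. The largest rises were those of Nfkbiz, an atypical IκB, by 5.40, 5.99 and 5.07, of Zc3h12a, the mRNA nuclease Regnase-1, by 3.82, 3.95 and 3.68, and of Peli1, a ubiquitin ligase of the pathway, by 3.90, 3.50 and 3.50. Tab1, a partner of the kinase TAK1, fell by 3.01 in wt, fell by 3.36 in MK2-/- and fell by 3.54 in MK2/3-/- cells (adjusted p = 1.51e-06, 9.54e-07 and 1.24e-07). Myd88 and Irak2 were also among the genes that rose in each genotype, while Irak4 and Irak1 were not called. None of the 14 was called between genotypes or in the interaction.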

How the data were processed

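RNA of 23 BMDM samples was labelled with Cy3 and hybridized to Agilent mouse arrays of a SurePrint G3 layout designed on the build mm9. Per the file headers, the authors extracted the spot intensity with Feature Extraction 11.0.1.1, as background-subtracted and spatially detrended signals that are not normalized between arrays. The authors also deposited log2 values that are quantile normalized and relative to the median of each probe, which served as an alternative. Here flagged spots were set to missing, control spots removed, replicate spots averaged and the log2 intensity quantile normalized over the 23 arrays (R 4.3.3, limma 3.58.1, data.table version 1.17.8). Of 62976 spots per array 59305 were not controls, and none of these was saturated. For each gene with an NCBI accession 1 probe was kept, as in the methods, namely that with the largest rise after LPS in wt samples, which favours that comparison.

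The 6 groups were fitted in 1 limma model, and p-values were adjusted by Benjamini-Hochberg over 26014 genes at a threshold of 0.05. Permutation tests were exact and two-sided over the arrays, with 0.0286 as the smallest possible p. The fit was tested on simulated data. A mean over a group that was not well above background was replaced by the lowest signal well above background on each array, which gives the bounds on fold changes. Arrays have no read depth, so that precision is limited by how many were run.

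Groups came from the sample labels. Samples of the same culture deviated together, with correlations of their deviations from the group means of 0.359 to 0.776 in 11 of 11 pairs over 12570 genes well above background on all arrays, and of 0.0657 to 0.566 over 25902 genes. Medium and LPS arrays from different cultures of a genotype had correlations of -0.467 to 0.340 over the 12570 genes, over 0.1 in 3 of 33 pairs. The pairing was taken from the letters in the authors' sample names, the age of the mice and these deviations. The correlations are therefore no separate check of it. Alternatives covered normalization, background correction, dim probes, a signal floor of 5, the probe per gene, the deposited values, the samples fitted, the methods' t-test, the culture as a block and leaving out each array.

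The members and gene lists were chosen with earlier results of these data known. Named were all 9 members, the genes of the kinases, list genes called in at least 1 comparison with values for at most 4 per list and comparison, and the 2 closest profiles of each member. Motifs were searched in RefSeq promoters with Python 3.11.15, and figures were drawn with matplotlib 3.10.9.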

Additional observations from a re-analysis of the deposited data

Results flagged for a closer look

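The log2 level of Il1rn in wt BMDM in medium was 7.05 in replicate 1, while the other replicates lay between 5.73 and 5.92, so that the gap to the next array made up 0.856 of the range of the group. Of 45 groups of 4 arrays tested over the 9 genes this was the 1 array that stood apart by Dixon's criterion, which chance exceeds in about 1 of 20 groups (5%).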

How the results depend on the processing

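The number of members called after LPS was 4 to 7 in wt, 4 to 6 in MK2-/- and 6 to 9 in MK2/3-/- BMDM over 34 alternatives, and 5 to 7, 4 to 6 and 7 to 8 when 1 array was left out. Between MK2/3-/- and wt BMDM after LPS 1 member, Il33, was called when only probes well above background throughout a group were tested. When 1 array was left out, 0 to 1 members were called there. With the letter of the sample name as a fixed replicate block, chosen after seeing the data, 2 members were called, Il33 (adjusted p = 0.0214) and Il1r2 (adjusted p = 0.0480), against 3.65% of all genes. In all other comparisons between genotypes, and in the interactions, 0 members were called under each of 33 alternatives. Pairing by culture as a random replicate block added the call of Il18bp after LPS in MK2/3-/- BMDM (adjusted p = 0.0227) and changed no other call of a member. Of 108 differences 92 kept their side of the threshold throughout, and none that was called reversed. The rise of Il1r1 in wt BMDM was lost with the methods' t-test (adjusted p = 0.0522). Fitting only the groups compared lost Il18 in MK2-/- BMDM (adjusted p = 0.0837) and added Il1rap in wt (adjusted p = 0.0473) and Il18bp in MK2-/- BMDM (adjusted p = 0.0322). With normexp background correction the rise of Il33 was 1.50, 1.90 and 2.56, and that of Il1r2 0.28, 0.17 and 0.69. The cause of these changes was not tested. Signals near background limit Il1a and Il33 in medium, Il1r1 in medium and Il1r2 throughout.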
